A study of Homo sapiens with 4 samples.

Results

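The endoplasmic reticulum (ER) unfolded protein response is described here across 35 genes. They were chosen for their roles as ER chaperones, disulfide isomerases, components of ER-associated degradation, sensors of the response and subunits of the Sec61 channel. The choice was made with earlier results of these data known, so counts over the list are descriptions. Of the 35, 33 had a probe set annotated to that gene alone and all 33 were bright enough to be tested, among 12296 tested genes of 19775 on the array. The 2 others, PDIA5 and SYVN1, were annotated only together with a microRNA gene and were not tested. The cells were SKOV3, an established human ovarian carcinoma line. Control cells (2 arrays) were not treated with rhSTIP1, and the compared cells (2 arrays) were treated with it. STIP1 is a cochaperone of HSP70 and HSP90 that cells also secrete, and rhSTIP1 was taken to mean its recombinant human form. Dose, duration, medium and any vehicle are not given by the labels. Nor do they state that replicate arrays stem from separate cultures, so the p-values reflect the spread among these 4 samples alone, and that spread may be technical.

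Proteins that enter the ER are folded there by chaperones of the HSP70 and HSP90 families and by isomerases that form disulfide bonds. When unfolded protein accumulates, 3 membrane sensors respond. IRE1, encoded by ERN1, splices the XBP1 messenger RNA. ATF6 is cut in the Golgi and enters the nucleus. PERK, encoded by EIF2AK3, phosphorylates a translation factor and so raises ATF4. XBP1 and ATF6 switch on chaperones and the machinery that pulls misfolded proteins back to the cytosol for degradation, whereas ATF4 drives DDIT3 (CHOP) and other stress genes. Secretory and cancer cells keep part of this programme switched on. The arrays measure total transcript, so splicing of XBP1, cleavage of ATF6 and phosphorylation of PERK are not visible in these values.

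The promoters of several of these genes carry the ER stress response element (ERSE), to which ATF6 binds together with the CCAAT-binding factor NF-Y. They are shown because such elements were found in 10 members of several roles, and the changes are set beside them further on. Stretches of the RefSeq promoter windows (GRCh38.p14, from 250 bases before to 50 bases after an annotated start) are written along the strand of the gene. Capitals mark the fixed letters of the element.
HSPA5, ERSE: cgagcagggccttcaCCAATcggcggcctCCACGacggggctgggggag
HSP90B1, ERSE on the opposite strand: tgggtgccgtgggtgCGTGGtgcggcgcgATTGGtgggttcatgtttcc
CALR, ERSE on the opposite strand: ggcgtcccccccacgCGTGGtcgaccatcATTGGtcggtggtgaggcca
CRELD2, ERSE on the opposite strand: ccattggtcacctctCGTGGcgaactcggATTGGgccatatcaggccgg
PDIA6, ERSE: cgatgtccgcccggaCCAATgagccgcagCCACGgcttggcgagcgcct
XBP1, ERSE: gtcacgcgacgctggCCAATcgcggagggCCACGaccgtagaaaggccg
HERPUD1, ERSE-II: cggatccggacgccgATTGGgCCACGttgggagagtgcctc
HYOU1, ERSE-II on the opposite strand: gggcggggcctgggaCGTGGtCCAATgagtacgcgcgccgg
SDF2L1, ERSE-II on the opposite strand: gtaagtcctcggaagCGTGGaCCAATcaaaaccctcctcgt
DNAJB9, no whole element, with the letters CCACG and CCAAT of either strand in capitals: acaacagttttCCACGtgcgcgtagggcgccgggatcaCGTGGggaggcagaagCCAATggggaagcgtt

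The HSPA5 stretch lies at chr9:125241376-125241424 on the minus strand and its element runs from 66 to 48 bases before the start. The HSP90B1 stretch is at chr12:103930306-103930354 on the plus strand, with the element 89 to 71 bases before the start. CALR is shown at chr19:12938369-12938417 (plus) and CRELD2 at chr22:49918539-49918587 (plus), with elements 225 to 207 and 80 to 62 bases upstream. PDIA6 is shown at chr2:10812838-10812886 (minus), with the element 86 to 68 bases upstream of one of its annotated starts. XBP1 is at chr22:28800588-28800636 (minus), with the element 52 to 34 bases upstream. HERPUD1 is at chr16:56932010-56932050 (plus, element 117 to 107 bases upstream), HYOU1 at chr11:119057259-119057299 (minus, 79 to 69) and SDF2L1 at chr22:21642099-21642139 (plus, 188 to 178). The DNAJB9 stretch is at chr7:108569789-108569858 on the plus strand and covers 85 to 16 bases before the start.

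Exact matches were searched on both strands of all windows. The ERSE was searched as CCAAT and CCACG with 9 free bases between them, the ERSE-II as ATTGG and CCACG with 1 free base between them, and the UPRE, an element bound by XBP1, as TGACGTGG. Windows were found for 32 of the 35 genes and not for PDIA3, DERL1 and DERL3. The ERSE was present in 7 of the 32 genes (21.9%), namely CALR, CANX, CRELD2, HSP90B1, HSPA5, PDIA6 and XBP1, against 25 of all 27305 genes with a window (0.0916%). The ERSE-II was present in HERPUD1, HYOU1 and SDF2L1 (9.38%, against 0.0696% of all genes), and the UPRE in DNAJC10 and HYOU1 (6.25%, against 0.927%). In HYOU1 the UPRE overlapped a second ERSE-II. The element was defined on promoters of these very genes, so their share is a description of the list. A match is not evidence of binding, and a gene without one may carry a variant form or an element outside the window.

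Signals are MAS5 intensities, 1 value a gene from its brightest probe set, and changes are differences of mean log2(signal + 16) between rhSTIP1 and control, with the standard error (SE) of the limma fit. Each array was scaled to the same trimmed mean (500.1), and median signals were 66.0 and 79.2 in the controls and 69.0 in both rhSTIP1 arrays. For ACTB the ratio of 3′ to 5′ signal, which rises with RNA degradation, was 2.45 to 2.74 on 3 arrays and 8.79 on rhSTIP1 array 2, whereas for GAPDH it was 0.987 to 1.32. The part of RNA quality in the results was not tested. Of 12 epithelial and ovarian markers, KRT7, KRT8, KRT18, KRT19, EPCAM, ERBB2 and PAX8 had mean signals of 4310 to 12200. CLDN3, CLDN4, MSLN and WT1 were dimmer, from 1310 down to 86.0, and MUC16 was under the level for testing. None of the 4 leukocyte markers on the array reached that level, and their summed signal was 93 and 95 against 118 and 135 on the rhSTIP1 arrays, so the groups were apart. Of 7 fibroblast markers 4 reached it, all above 0 with a median log2 fold change of 0.47, and the sum of the 7, at 661 and 454 against 670 and 521, overlapped. For 4 endothelial markers, of which 1 reached it, the sums were 199 and 211 against 354 and 206. The part of other cell types in the results was not tested.

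Most members had slightly more signal with rhSTIP1, and the size of the difference depended on which control array it was taken against. Of the 33 members tested, 27 had a log2 fold change above 0 (81.8%, against 53.2% of all genes tested) and 6 had one below 0, among them ATF6B, which rounds to 0.00. The median over the members was 0.28, against 0.02 over all genes. As the list was chosen with earlier results known, these values describe it and were not tested as a set. In 9 members both rhSTIP1 arrays lay above both controls (14.0% of all genes did so), and in 0 members both lay below (14.9% of all genes). The 9 were DNAJB9, MANF, DNAJC3, PDIA4, PDIA6, EDEM1, EDEM3, EIF2AK3 and SEC61A1. After median centring of the arrays the same counts were 18 and 0, and the shares of all genes 19.3% and 10.1%. No member passed limma's test over all genes, fitted without a replicate block. The Benjamini-Hochberg adjusted p was 0.968 for DNAJB9 and 0.999 for each of the other 32. Among all 12296 genes 0 passed at an adjusted p of 0.05, and 452 had an unadjusted p under 0.05. At that unadjusted level 1 member, DNAJB9, was higher (1.04% of all genes) and 0 were lower (2.64%). For a single gene in this design the smallest two-sided p of an exact permutation test is 0.333.

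**Figure D1:**
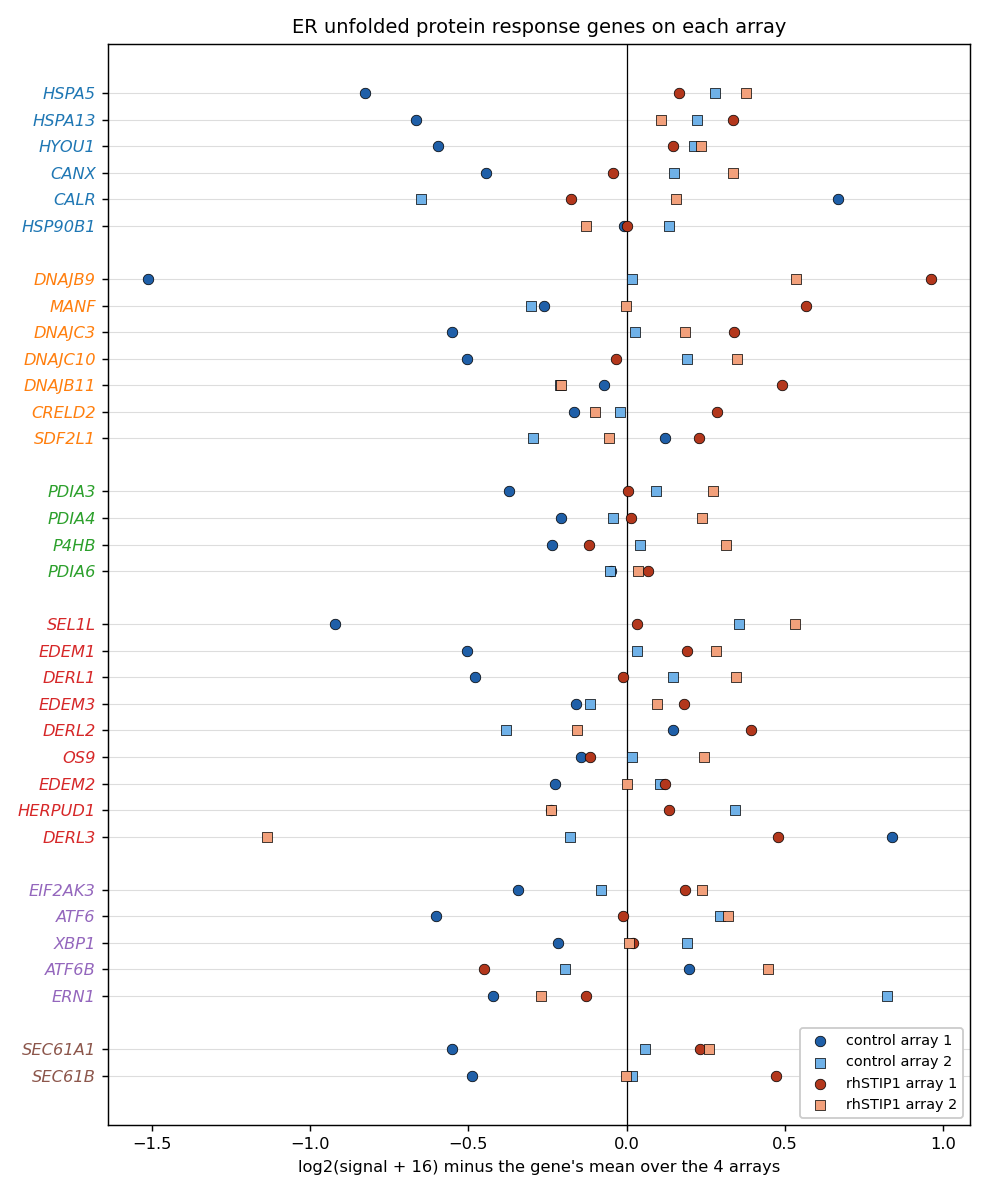
Each row is a gene, and the points give its log2(signal + 16) on the 4 arrays minus its own mean over them, with blue for control, red for rhSTIP1 and label colours for the role groups. Control array 1 (dark blue circles) is the lowest point for 24 of the 33 genes, and the other 3 arrays often lie close together, as for HSPA5 and HYOU1.

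The controls differed from each other as much as the groups did. Control array 1 had the lowest of the 4 signals in 24 of the 33 members (72.7%, against 30.2% of all genes). Over the members control array 2 lay above control array 1 by a median of 0.41, with 25 of 33 above (53.2% of all genes). Both rhSTIP1 arrays lay above control array 1 by similar amounts, 0.40 for array 1 (30 of 33 above, 51.4% of all genes) and 0.44 for array 2 (27 of 33, 53.7%). Against control array 2 the medians were 0.06 for rhSTIP1 array 1 (18 of 33 above, 46.9% of all genes) and 0.18 for rhSTIP1 array 2 (24 of 33, 52.0%). The rhSTIP1 arrays differed from each other by a median of −0.01. Without control array 1 the median log2 fold change of the members was 0.06, and 13 were higher and 4 lower than the remaining control on both rhSTIP1 arrays. With fewer arrays to separate, 29.1% and 30.2% of all genes met those conditions. Without control array 2 the median was 0.33, and 26 members were separated higher (35.8% of all genes) and 2 lower (30.7%).

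**Figure D2:**
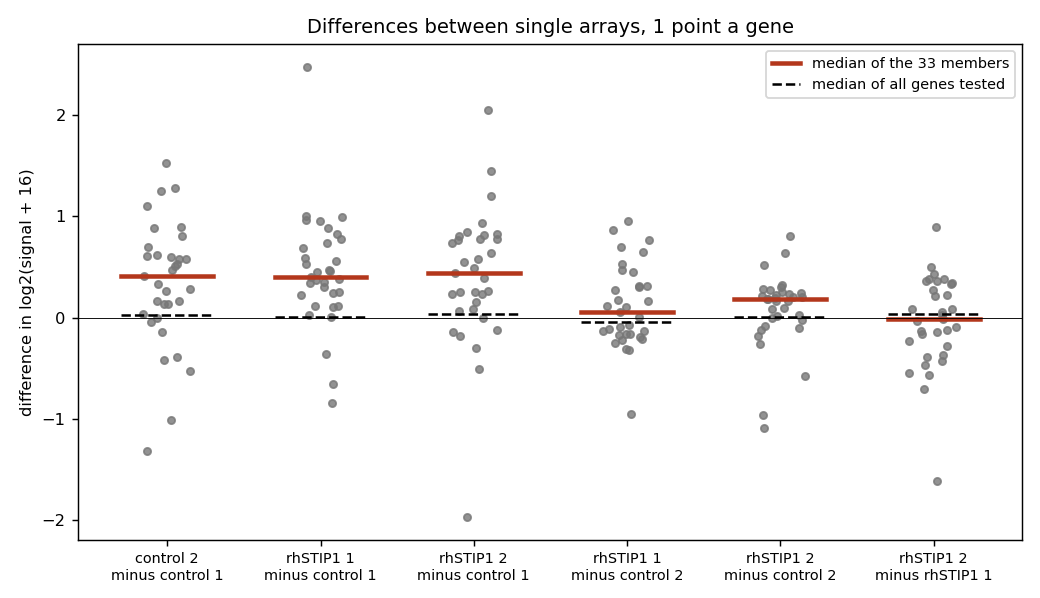
Differences in log2(signal + 16) for the 6 pairs of single arrays, with 1 grey point for each of the 33 members, their median in red and the median of all 12296 genes as a dashed line. The member medians are 0.40 to 0.44 in the 3 pairs that hold control array 1, and between −0.01 and 0.18 in the 3 that do not.

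Signals are given below in the order control array 1, control array 2, rhSTIP1 array 1, rhSTIP1 array 2. Over the 6 ER chaperones, control array 2 lay above control array 1 by a median of 0.70, and 4 of the 6 were lowest on control array 1. Of the 6, 4 had fold changes above 0 (53.2% of all genes) and 0 were separated between groups. Over all genes 14.0% were separated higher and 14.9% lower. HSPA5, which encodes BiP, the HSP70 of the ER lumen and the protein that holds all 3 sensors inactive, gave 10939 and 23543 on the control arrays and 21773 and 25214 on the rhSTIP1 arrays. Only control array 1 was low, and rhSTIP1 array 1 lay under control array 2. The log2 fold change was 0.55 ± 0.33 (SE), or 1.46-fold. HSPA13, a smaller member of the HSP70 family at the ER membrane, gave 2194 and 4078 on the control arrays and 4414 and 3764 on the rhSTIP1 arrays, 0.44 ± 0.31. HYOU1, an HSP110-type chaperone that exchanges the nucleotide of BiP, had 2189 and 3846 against 3668 and 3907, 0.38 ± 0.30. For all 3 the arrays other than control array 1 lay within a narrow range. Without control array 1 the log2 fold changes of HSPA5, HSPA13 and HYOU1 were −0.01, 0.00 and −0.02.

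The lectin chaperones, which hold glycoproteins while they fold, did not move alike. Calnexin (CANX), the membrane-bound form, had a log2 fold change of 0.29 ± 0.24, and 0.00 without control array 1. Calreticulin (CALR), the soluble form, gave 4414 and 1761 on the control arrays and 2450 and 3090 on the rhSTIP1 arrays, so both rhSTIP1 arrays lay between the controls. CALR went against the other chaperones in being highest on control array 1. HSP90B1 (GRP94), the HSP90 of the ER, had 2485 and 2741 against 2500 and 2284, −0.13 ± 0.22. That value and the one of CALR came from probe sets of a type that can detect related transcripts. The 2 probe sets annotated to both HSP90B1 and the microRNA gene MIR3652 had differences of 0.15 and 0.21. The second of these had 15405 and 16714 against 16283 and 21181, brighter than the probe set used. The direction for HSP90B1 was therefore not settled.

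Cochaperones and other partners of BiP included the members with the largest differences. All 7 had fold changes above 0 (53.2% of all genes), and DNAJB9, MANF and DNAJC3 were separated higher (14.0% of all genes). DNAJB9 (ERdj4), a J-domain cochaperone that recruits BiP to IRE1 and is a target of XBP1, gave 750 and 2197 on the control arrays and 4245 and 3150 on the rhSTIP1 arrays. Both rhSTIP1 arrays exceeded both controls, but the controls differed from each other by 1.53 on the log2 scale. The log2 fold change was 1.50 ± 0.46, or 2.82-fold, with a 95% interval of 0.42 to 2.58 (limma, unadjusted p = 0.0131, adjusted p = 0.968). It was 0.73 without control array 1 and 2.26 without control array 2. The 2 further DNAJB9 probe sets had signals of 343 and 968 against 1512 and 1121, and of 210 and 574 against 978 and 969. In both the groups were again apart, with differences of 1.15 and 1.44.

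MANF, a secreted and ER-resident factor that stabilises BiP-bound clients, gave 2616 and 2544 on the control arrays and 4656 and 3140 on the rhSTIP1 arrays, 0.56 ± 0.26 or 1.48-fold. Unlike HSPA5, its controls agreed closely, and the rhSTIP1 arrays were the ones that differed. Without rhSTIP1 array 1 its log2 fold change was 0.28. DNAJC3 (P58IPK), a J-domain protein that also inhibits PERK, had 1436 and 2153 against 2676 and 2401, 0.52 ± 0.27. It was 0.23 without control array 1 and 0.31 with the mean of its probe sets. The other 4 overlapped between groups, with log2 fold changes of 0.31 for the J-domain reductase DNAJC10, 0.28 for DNAJB11, 0.19 for CRELD2 and 0.17 for SDF2L1. DNAJB11, SDF2L1 and CRELD2 were each highest on rhSTIP1 array 1, as were MANF, DNAJC3 and DNAJB9. Over the group, rhSTIP1 array 2 lay below rhSTIP1 array 1 by a median of −0.39.

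**Figure D3:**
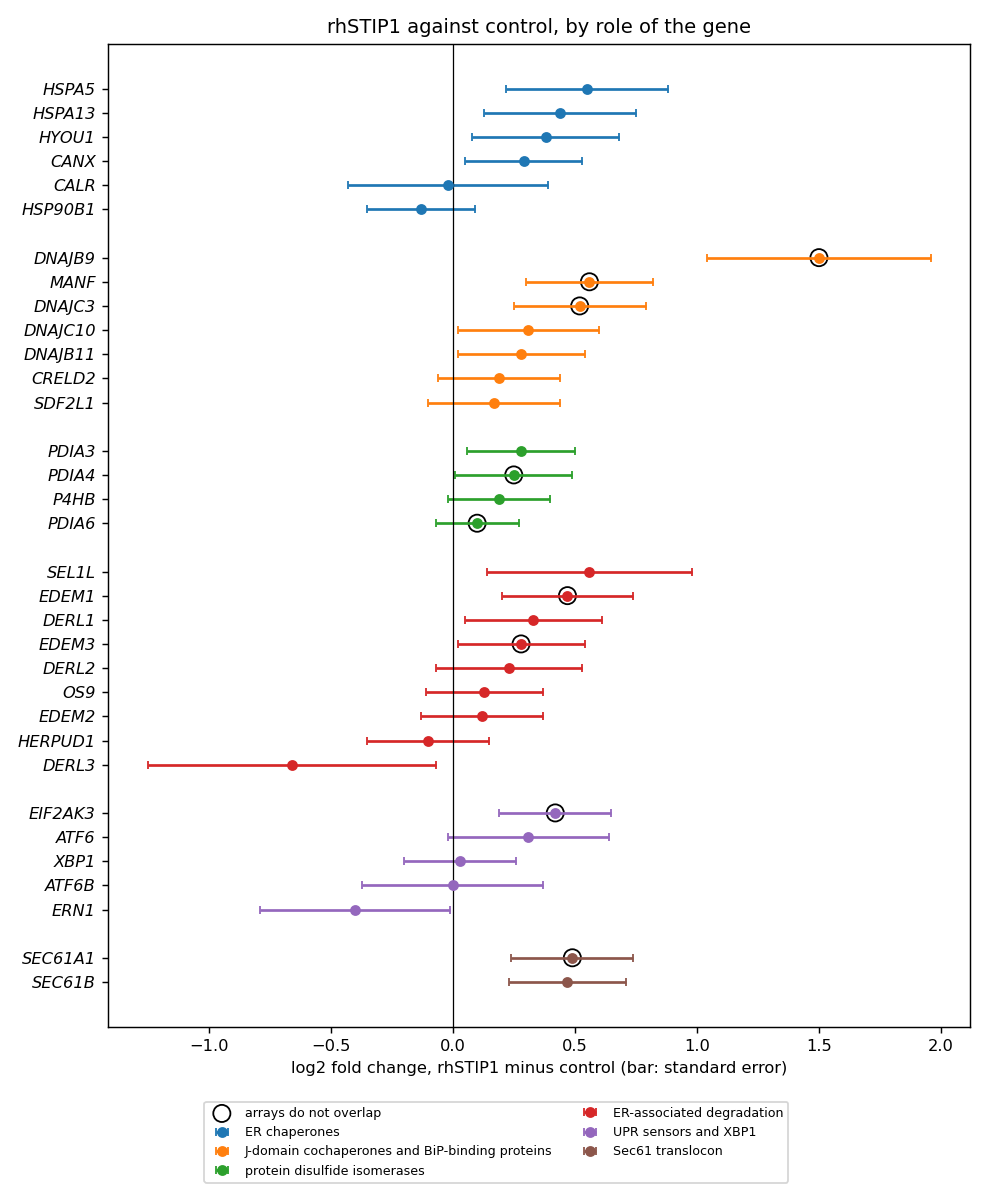
The log2 fold change of each member, rhSTIP1 minus control, with its standard error from the limma fit, grouped by role; circles mark the 9 genes whose arrays did not overlap. DNAJB9 stands at 1.50, and the other 32 lie between −0.66 (DERL3) and 0.56.

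The disulfide isomerases differed little. All 4 tested had fold changes above 0 (53.2% of all genes), from 0.10 to 0.28. PDIA4 and PDIA6 were separated higher (14.0% of all genes). PDIA3 (ERp57), which works with calnexin and calreticulin on glycoproteins, gave 7290 and 10071 on the control arrays and 9471 and 11396 on the rhSTIP1 arrays, 0.28 ± 0.22. Control array 2 lay between the rhSTIP1 arrays, and the value was 0.04 without control array 1. PDIA4 (ERp72) had 1364 and 1531 against 1591 and 1862, 0.25 ± 0.24, with the groups apart by a small step, and 0.14 without rhSTIP1 array 2. A dimmer PDIA4 probe set overlapped between groups, with a difference of 0.09. P4HB, the classical isomerase PDI and a subunit of prolyl 4-hydroxylase, had 12164 and 14768 against 13209 and 17823, 0.19 ± 0.21. PDIA6 was separated although it differed by only 1.07-fold, as its signals were nearly level within each group, 10216 and 10201 on the control arrays and 11071 and 10841 on the rhSTIP1 arrays. This probe set too is of a type that can detect related transcripts, and the 3 other PDIA6 probe sets overlapped between groups, with differences of 0.05 to 0.27. The probe set annotated to both PDIA5 and the microRNA gene MIR7110 differed by 0.06.

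Genes of ER-associated degradation, which recognise misfolded proteins and pass them out of the ER, had fold changes above 0 in 7 of 9. EDEM1 and EDEM3 were separated higher. Over all genes 53.2% were above 0 and 14.0% were separated higher. EDEM1, a mannosidase-like protein that marks misfolded glycoproteins and is a target of XBP1, gave 757 and 1104 on the control arrays and 1235 and 1316 on the rhSTIP1 arrays, 0.47 ± 0.27 or 1.39-fold. Its log2 fold change was 0.21 without control array 1. EDEM3 had 278 and 287 against 357 and 335, 0.28 ± 0.26, and its values with any 1 array left out ran from 0.23 to 0.32. Its 2 other probe sets overlapped, with differences of 0.37 and −0.19, and the mean of its probe sets gave 0.15. EDEM2 overlapped between groups at 0.12 ± 0.25.

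SEL1L, the adaptor that holds the ubiquitin ligase SYVN1 (HRD1), gave 944 and 2308 on the control arrays and 1841 and 2612 on the rhSTIP1 arrays, 0.56 ± 0.42. Control array 1 alone was low, and the value was −0.07 without it. The probe set annotated to both SYVN1 and the microRNA gene MIR6751 differed by −0.10. DERL1, a channel-like protein of the same complex, had 2679 and 4136 against 3704 and 4751, 0.33 ± 0.28, and 0.02 without control array 1. DERL2 had 0.23 ± 0.30 and OS9, a lectin that reads the trimmed glycan, 0.13 ± 0.24. A dimmer probe set of each was separated higher, with differences of 0.84 for DERL2 and 0.33 for OS9. The brighter OS9 probe set is of a type that can detect related transcripts. HERPUD1 (HERP), a scaffold of the complex and a widely used marker of ER stress, gave 6717 and 10075 on the control arrays and 8709 and 6729 on the rhSTIP1 arrays. Both rhSTIP1 arrays lay between the controls, and the log2 fold change was −0.10 ± 0.25. DERL3, the dimmest member, had 243 and 112 against 186 and 50, with overlapping arrays and a log2 fold change of −0.66 ± 0.59. Its probe set too is of a type that can detect related transcripts. The other DERL3 probe set bright enough overlapped, with a difference of 0.01, and the mean of its probe sets gave −0.17.

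Among the sensors and XBP1, EIF2AK3 was separated higher (14.0% of all genes were) and the other 4 were not separated. EIF2AK3, which encodes PERK, gave 1266 and 1520 on the control arrays and 1831 and 1902 on the rhSTIP1 arrays, 0.42 ± 0.23 or 1.34-fold. The rhSTIP1 arrays agreed closely and the log2 fold change lay between 0.29 and 0.55 with any 1 array left out, and at 0.17 when averaged with a second probe set too dim for testing. ERN1, which encodes IRE1, gave 850 and 2039 on the control arrays and 1047 and 946 on the rhSTIP1 arrays, −0.40 ± 0.39. Here control array 2 alone was high, so the value was −1.02 without control array 1 and 0.22 without control array 2. ATF6 had 862 and 1620 against 1306 and 1651, 0.31 ± 0.33. Of the 3 other ATF6 probe sets bright enough, 1 was separated, at 482 and 527 against 830 and 722, a difference of 0.60. The others overlapped, with differences of 0.47 and −0.18. ATF6B, a relative of ATF6, had 300 and 225 against 186 and 360, with no difference in the means.

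XBP1 gave 2990 and 3970 on the control arrays and 3527 and 3501 on the rhSTIP1 arrays. Both rhSTIP1 arrays lay between the controls, the log2 fold change was 0.03 ± 0.23, and its 95% interval of −0.51 to 0.57 does not exclude changes of either sign. The dimmer second XBP1 probe set overlapped too, with a difference of −0.45. These probe sets give total XBP1 transcript and were not used to tell the spliced form from the unspliced one.

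The Sec61 channel carries nascent proteins into the ER. SEC61A1, its pore subunit, gave 3198 and 4885 on the control arrays and 5509 and 5622 on the rhSTIP1 arrays, 0.49 ± 0.25 or 1.41-fold. The groups were apart, and the log2 fold change was 0.19 without control array 1. SEC61B, a small accessory subunit, had 8816 and 12538 against 17190 and 12367, 0.47 ± 0.24. Its rhSTIP1 array 2 lay just under control array 2, so the groups overlapped. Leaving out control array 1 gave 0.22, and leaving out rhSTIP1 array 1 gave 0.23.

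Other probe sets of the members gave a further look at the same RNA. The array held 83 probe sets annotated to a single member, and 76 reached the level for testing. Of the 43 that were not the brightest of their gene, 33 had a difference above 0 and 10 below (46.2% of all such probe sets on the array were above 0). In 8 of the 43 both rhSTIP1 arrays lay above both controls (11.3% of all such probe sets), and in 2, of ATF6B and HSP90B1, both lay below (16.5%). The dimmer HSPA5 probe set was among the 8, at 470 and 949 on the control arrays and 1308 and 1224 on the rhSTIP1 arrays, a difference of 0.90. It too was lowest on control array 1, but unlike the brighter set it was separated from control array 2. It was chosen after its values were seen.

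Members were also grouped by the elements in their windows. The 10 genes with an ERSE or ERSE-II had log2 fold changes from −0.13 (HSP90B1) to 0.55 (HSPA5), with a median of 0.14, and 1 of them, PDIA6, was separated. The 19 tested members with a window and none of the 3 elements ran from −0.40 (ERN1) to 1.50 (DNAJB9), with a median of 0.31, and 8 of them were separated. All of these were separated higher, as were 14.0% of all genes. The difference between the sets was not tested. DNAJB9, MANF and EDEM1 were in the second set. The DNAJB9 stretch printed above holds the letters CCACG and CCAAT but not in the order, orientation and spacing of an ERSE. CCAAT occurred in 34.6% of all windows and CCACG in 38.1%. Counted by gene, CCAAT occurred in 81.2% of members with a window, against 39.7% of all genes. For CCACG the shares were 75.0% and 42.1%. The member shares include the genes with a whole element.

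**Figure D4:**
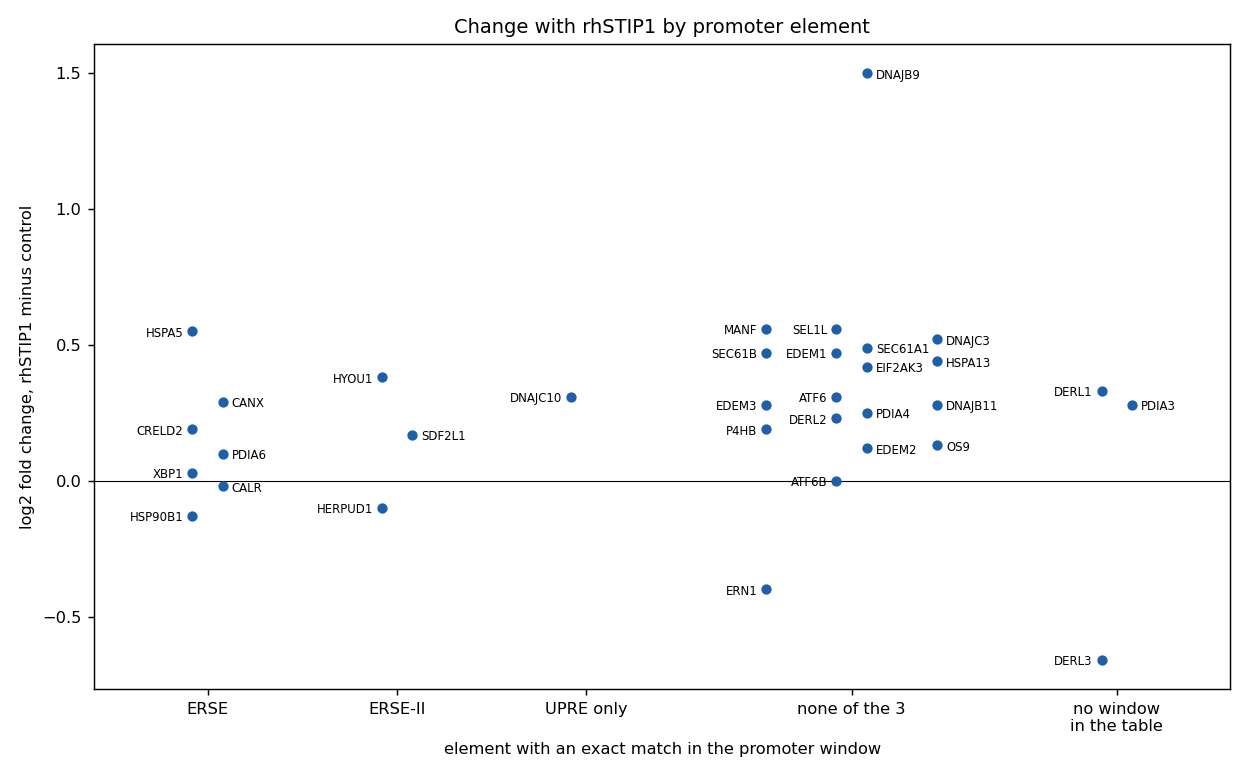
The log2 fold change of each tested member, rhSTIP1 minus control, by the element with an exact match in its RefSeq promoter window (points are moved sideways only to keep names apart). The genes with an ERSE or ERSE-II lie between −0.13 and 0.55, and DNAJB9, MANF, SEL1L and DNAJC3 stand among the genes with none of the 3 elements.

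Other genes of the ER were read from 7 lists with 190 genes, of which 176 were tested. These lists too were chosen with earlier results known. Outside the PERK and ATF4 outputs, 124 of 152 tested genes had a log2 fold change above 0 (81.6%, against 53.2% of all genes), and 42 were separated higher and 3 lower (14.0% and 14.9% of all genes). Their median was 0.17, and 0.11 without control array 1. Protein translocation and signal peptide cleavage had 25 of 25 above 0, 10 separated higher and 0 lower, with a median of 0.25, and 0.15 without control array 1. SSR1, a subunit of the translocon-associated protein complex, gave 13208 and 13963 on the control arrays and 19798 and 19197 on the rhSTIP1 arrays, 0.52 ± 0.16 (limma, unadjusted p = 0.0115, adjusted p = 0.915). Its controls agreed closely, unlike those of HSPA5. SPCS3, a subunit of the signal peptidase, had 3992 and 4772 against 6409 and 6773, 0.59 ± 0.21.

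In the list of COPII, COPI and KDEL receptor genes, which move cargo between the ER and the Golgi, 25 of 30 were above 0, with 8 separated higher and 1 lower. The shares of all genes to set beside the counts of each list here are 53.2% above 0, 14.0% separated higher and 14.9% lower. SEC24D, a cargo-binding coat subunit, had a log2 fold change of 0.69 ± 0.24 and TMED10, a cargo receptor, 0.52 ± 0.21. Other degradation genes had 19 of 25 above 0, with 6 separated higher and 1 lower. ERLEC1, a lectin related to OS9, had 0.64 ± 0.24, and ERLIN2 0.34 ± 0.22. Other folding enzymes had 19 of 23 above 0 and 5 separated higher, and the smallest p belonged to the oxidase ERO1B (0.61 ± 0.27) and the prolyl isomerase PPIB (0.33 ± 0.16). Oligosaccharyltransferase and N-glycan genes had 21 of 29 above 0 and 8 separated higher, with OSTC at 0.47 ± 0.23 and ALG2 at 0.57 ± 0.29. Other stress transducers had 15 of 20 above 0, with 5 separated higher and 1 lower, and WFS1 (0.63 ± 0.26) and CREB3L2 (0.69 ± 0.29) had the smallest p. All 10 genes named here had both rhSTIP1 arrays above both controls.

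The list named PERK and ATF4 outputs had a median below 0. It also held signalling genes (EIF2S1, NFE2L2, EIF2AK1, EIF2AK2 and EIF2AK4), so its counts are not of target genes alone. Of 24 tested, 15 were below 0 and 9 above, with a median of −0.11. The counts separated were 5 lower and 3 higher, beside 14.9% and 14.0% of all genes. At a limma unadjusted p under 0.05, 5 were lower and 0 higher, beside 2.64% and 1.04% of all genes. Without control array 2 the median was 0.10. DDIT3 (CHOP), the proapoptotic factor at the end of the PERK branch, gave 7120 and 11024 on the control arrays and 2865 and 3962 on the rhSTIP1 arrays. Its log2 fold change was −1.39 ± 0.28 (limma, unadjusted p = 0.00128, adjusted p = 0.702). CHAC1, a target of ATF4 and CHOP, had −2.60 ± 0.24 (limma, unadjusted p = 7.72e-06, adjusted p = 0.0689). DDIT3 and CHAC1 had the smallest p of this list, and for each both rhSTIP1 arrays lay below both controls. EIF2AK3 itself was higher on both rhSTIP1 arrays.

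**Figure D5:**
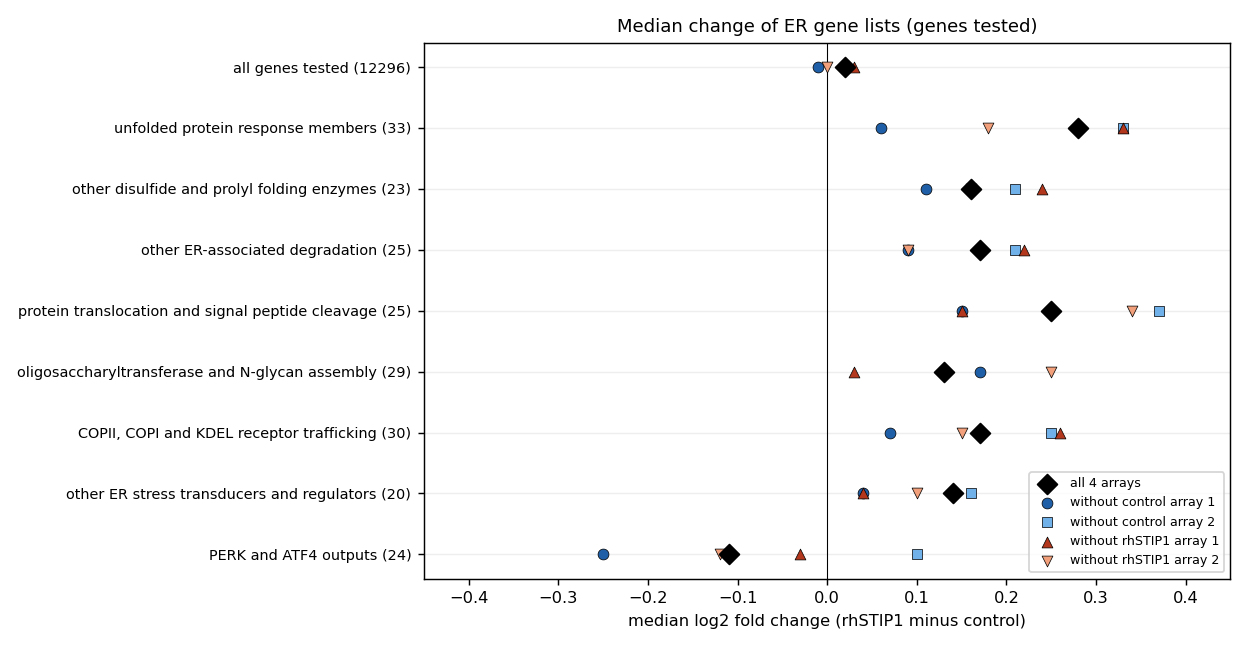
Median log2 fold change, rhSTIP1 minus control, of all genes tested, the 33 members and the 7 other ER lists, with all arrays (black diamonds) and with each array left out. The member median moves from 0.28 to 0.06 without control array 1, and the PERK and ATF4 outputs are the list whose median is below 0 with all 4 arrays.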

How the data were processed

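RNA of SKOV3 cells was measured on 4 Affymetrix arrays, 2 control and 2 rhSTIP1, grouped by title. The authors deposited an intensity for each probe set on a linear scale. Per the submitters' processing notes it was computed with MAS5, using version 1.1 of Affymetrix Expression Console. MAS5 brings every array to the same target. No detection calls were used, so dim intensities cannot be told from background. Of 54613 probe sets other than controls, 41091 had 1 gene symbol, 1801 several and 11721 none in the platform annotation. Each gene took its brightest probe set with 1 symbol, and was tested where the mean signal reached 69.4, the median over probe sets. The fit was limma 3.58.1 in R 4.3.3 (lmFit, then eBayes with its trend option), run on log2(signal + 16). P-values were two-sided and adjusted by Benjamini-Hochberg over 12296 genes. A fold change on this scale understates changes of dim genes. Only the limma fit was tested on simulated data, with independent noise and no array effect, and the other steps were not. The number of arrays limits the precision.

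The members, lists, promoter elements and tests were chosen with earlier results of these data known. All arrays' signals are given for HSPA5, DNAJB9 and XBP1 and for the 3 members of each role with the smallest p, and values of 2 genes of each other list by the same measure; signals of other members, of ATF6B, CALR, HSP90B1, PDIA6, HERPUD1, DERL3 and EDEM3, were added after they were seen. Alternatives covered the pseudocount, filter, scaling, probe set choice, eBayes settings, replicate block and leaving out each array.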

Additional observations from a re-analysis of the deposited data

How the results depend on the processing

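The median log2 fold change of the members was 0.17 to 0.33 under every alternative that kept all 4 arrays, and 0.06 (without control array 1) to 0.33 with 1 array left out. The count of members separated higher was 18 with median centring (19.3% of all genes), 8 to 11 under the other alternatives with 4 arrays, and 13 to 26 with 1 array left out. The share of all genes was 14.0% in the main fit, and is not given for quantile normalization or averaged probe sets. The count separated lower was 2 (HERPUD1 and HSP90B1) when a gene's probe sets were averaged. It was 0 under the other alternatives with 4 arrays, and 1 to 4 with 1 array left out. The HERPUD1 average took in a probe set too dim for testing, with a difference of −0.79. The brighter HERPUD1 probe set overlapped between groups, at −0.10. With 1 array left out, 3580 to 4488 of all 12296 genes were separated higher and 3712 to 4094 lower. Over all genes, limma called 1 gene with the filter at the 70th percentile, 2 with robust eBayes and 0 to 6 with 1 array left out, where the remaining array of a group is given the spread of the other group.

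With the replicate block, 247 genes were called at an adjusted p of 0.05, and 9 members were higher at an unadjusted p under 0.05. Of these DNAJB9 passed over all genes (limma, adjusted p = 0.00512). The share of all genes at that unadjusted level was not counted for this fit, so the 9 have no baseline beside them. The labels give no pairing beyond the shared numbers. Same-numbered arrays deviated from their group means together (r = 0.362 across genes, which are not independent replicates), and 2 pairs are too few to settle it.

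With all arrays kept, the sign turned for CALR (0.04) with median centring and for P4HB (−0.11) and XBP1 (−0.21) with the mean of probe sets. ATF6B, at 0.00 with all arrays, stood at 0.05 after median centring, at 0.04 after quantile normalization and at −0.45 to 0.45 with 1 array left out. With 1 array left out the sign turned for 16 other members, whose log2 fold changes ran over these ranges. The chaperones were HSPA5 (−0.01 to 1.1), HYOU1 (−0.02 to 0.79) and CALR (−0.68 to 0.64). BiP partners and isomerases were DNAJB11 (−0.07 to 0.63), DNAJC10 (−0.03 to 0.66), SDF2L1 (−0.03 to 0.38) and P4HB (−0.02 to 0.41). Degradation genes were SEL1L (−0.07 to 1.20), HERPUD1 (−0.40 to 0.19), EDEM2 (−0.04 to 0.29), OS9 (−0.05 to 0.31), DERL2 (−0.04 to 0.51) and DERL3 (−1.47 to 0.15). Sensors were ATF6 (−0.14 to 0.76), ERN1 (−1.02 to 0.22) and XBP1 (−0.18 to 0.23). The cause was not tested in any of these. The table used here carries no background measure, so what signal over background limits was not assessed.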
